A study of Mus musculus with 8 samples.

Results

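The 9 genes described here act on the surface of B lymphocytes or in the signalling and transcription beneath it: Cd79a, Cd79b, Ms4a1, Cd22, Cd37, Blnk, Btk, Pax5 and Ltb. They were found through the array's annotation, as every probe set (the group of probes that reports 1 transcript or a few related ones) whose single mouse symbol was 1 of these. That gave 13 of the 45101 probe sets, with 1 probe set for each of 5 genes and 2 for each of the other 4 (Ms4a1, Cd22, Cd37 and Pax5).

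The tissue was whole gallbladder of female B6.V-lepob obese mice, which carry the ob mutation of the leptin gene and lack working leptin. Both treatments shared this genotype, a chow diet and an age of 12 weeks at removal of the gallbladder after an overnight fast. After 1 week of acclimation from their arrival at 7 weeks of age, 12 mice received recombinant mouse leptin at 5 µg per g body weight each day by intraperitoneal injection for 4 weeks, and 12 received saline. RNA of 3 gallbladders was pooled, which gave 4 saline pools (1 to 4) and 4 leptin pools (5 to 8), each measured on 1 Affymetrix Mouse Genome 430 2.0 array. The question put to these genes was whether their RNA level in the gallbladder differed between leptin and saline.

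The B cell antigen receptor is a membrane immunoglobulin held by a pair of signalling chains, which Cd79a and Cd79b encode. On binding antigen, kinases phosphorylate those chains, and Syk, Btk and the adaptor encoded by Blnk carry the signal to phospholipase C gamma 2. Co-receptors such as Cd22 and Fcgr2b restrain it, and Pax5 keeps cells in the B lineage. In mucosal tissue, B cells and the antibody-secreting plasma cells derived from them lie beneath the epithelium.

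Promoters of Cd79a, Ltb and Blnk are shown first, because Cd79a and Ltb passed the array's background in every leptin pool and in none of the saline pools, whereas Blnk passed it in every pool of both treatments. The sequences are RefSeq's for mouse assembly GRCm38.p6, read 5′ to 3′ on the gene's strand from 250 bases before to 50 bases after the transcription start. Capitals mark matches to any of 3 motifs, searched on both strands: the octamer ATTTGCAT bound by Oct factors, the core CCCNNGGG bound by EBF1, and the ETS-type AGGAAGT.
Cd79a, chr7:24897247-24897546, plus strand: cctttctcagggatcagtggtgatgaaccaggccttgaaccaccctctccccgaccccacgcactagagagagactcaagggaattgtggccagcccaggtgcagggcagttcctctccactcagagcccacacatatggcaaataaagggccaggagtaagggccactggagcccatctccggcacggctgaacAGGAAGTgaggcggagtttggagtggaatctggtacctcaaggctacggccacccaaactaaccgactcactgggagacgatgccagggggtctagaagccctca
Ltb, chr17:35194257-35194556, plus strand: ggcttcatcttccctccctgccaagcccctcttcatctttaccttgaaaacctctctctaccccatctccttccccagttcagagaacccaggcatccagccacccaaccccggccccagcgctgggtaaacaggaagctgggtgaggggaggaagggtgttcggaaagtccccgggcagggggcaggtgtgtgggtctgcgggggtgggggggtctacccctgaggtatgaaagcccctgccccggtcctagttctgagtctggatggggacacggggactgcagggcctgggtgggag
Blnk, chr19:40994172-40994471, minus strand: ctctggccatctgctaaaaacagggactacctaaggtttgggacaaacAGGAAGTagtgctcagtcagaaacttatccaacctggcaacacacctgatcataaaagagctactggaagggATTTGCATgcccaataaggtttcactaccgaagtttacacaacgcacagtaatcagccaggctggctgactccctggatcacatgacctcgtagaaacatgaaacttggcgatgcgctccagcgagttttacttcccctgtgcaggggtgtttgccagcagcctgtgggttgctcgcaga
The Cd79a window held the ETS-type motif with its first base 55 bases before the start. The Blnk window held the octamer 130 bases and the ETS-type motif 202 bases before the start, and none of the 3 motifs was in the Ltb window. Of the 9 genes, 7 had a window in the table used, and Cd22 (the EBF1 core, CCCTGGGG, 48 bases before the start) and Cd37 (the ETS-type motif on the opposite strand, ACTTCCT, 25 bases before) each held 1 match. The Pax5 and Btk windows held none of the 3. Among all 32851 windows of that length, 1.74% held the octamer, 13.7% the EBF1 core and 9.35% the ETS-type motif. A match describes these letters and is no evidence of binding. Only exact matches were marked, so a window without one may still hold a site with other letters.

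Values are MAS 5.0 signals, a brightness on a linear scale, and n is 4 pools in each treatment throughout. Background was put at a signal of 46.0, the level that 95% of the values of the array's bacterial control probe sets stayed under. If 2 or more pools of either treatment were below it, those pools were raised to background and the fold is written as "at least". Log2 differences are leptin minus saline on log2(signal + 8.2), which understates the change of dim probe sets. Levels of different probe sets are not compared, since brightness also depends on the probes.

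Transcripts of the receptor's signalling chains, of the surface protein CD20 and of lymphotoxin beta were higher after leptin. In the fit with a filter on dim probe sets, 3 of the 13 probe sets were bright enough to be tested. Of these, Ms4a1 and Cd22 were called higher at an adjusted p under 0.05, where 3.54% of all 22519 tested probe sets were called higher and 3.39% lower. The other 10 probe sets are read from the fit without that filter. There, 5 of the 13, of 4 genes (Ms4a1, Cd79a, Cd79b and Ltb), were called higher, where 1.42% of all 45037 were. Cd22 was not among them. All 13 estimates were above 0, with a median of 1.13 against 0.12 over all probe sets in that fit. In 8 of the 13, every leptin pool lay above every saline pool, which held for 6.77% of all probe sets whether or not they passed background. In 6 of the 8 the leptin pools were also all above background; the dimmer Cd22 and Cd37 probe sets were the other two. All p-values on single probe sets are from limma with Benjamini-Hochberg adjustment over every probe set of the fit.

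In RNA from whole tissue, more cells of a type and more RNA per cell cannot be told apart. Genes of leukocytes at large rose alongside, as described further on.

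**Figure D1:**
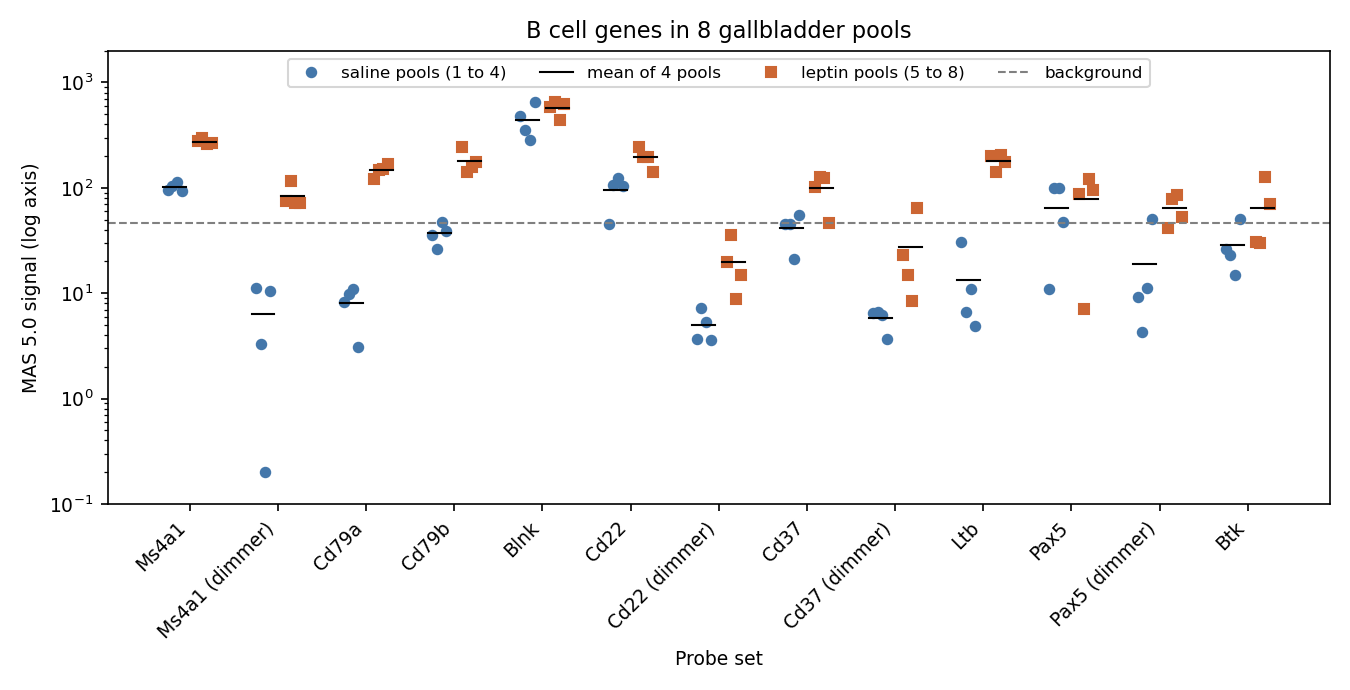
MAS 5.0 signal (log axis) of the 13 probe sets in the 4 saline and 4 leptin pools, with the mean of each treatment as a bar and the background signal of 46.0 as a dashed line. The leptin pools of Cd79a, Cd79b, Ltb and both Ms4a1 probe sets lie above background and above every saline pool, while Blnk, Btk, Pax5 and the brighter Cd37 probe set overlap between treatments.

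Cd79a encodes the Ig-alpha chain of the receptor. Its probe set (1418830_at) read 8.3, 9.9, 11.0 and 3.1 in saline pools 1 to 4, and 121.8, 147.3, 149.3 and 167.6 in leptin pools 5 to 8. All saline pools lay under background and all leptin pools above it. The means were 8.08 ± 3.50 and 147 ± 18.8 (SD), so the signal was at least 3.16-fold higher after leptin (adjusted p = 0.000394, no filter). The call was kept in all 17 alternatives run, with adjusted p from 0.000302 to 0.0210.

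Cd79b encodes Ig-beta, the partner chain. Its probe set (1417640_at) read 35.4, 26.0, 47.1 and 39.0 in the saline pools, of which saline 3 alone was above background, and 241.8, 142.2, 156.2 and 177.2 in the leptin pools. The groups did not overlap, and leptin 5 was the highest pool. The means were 36.9 ± 8.75 and 179 ± 44.0 (SD), and leptin pools were at least 3.79-fold higher (adjusted p = 0.00278, no filter). The call was lost in 1 of 17 alternatives, the fit with the actin 3′ to 5′ ratio as a covariate, where the log2 difference was 1.71 with an adjusted p of 0.107.

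Ighm, the heavy chain that these partners carry to the surface and that plasma cells also secrete, is given for reference. Its probe set (1427351_s_at) read 37.5 to 181.7 in the saline pools and 9752.4 to 14058 in the leptin pools. The log2 difference was 6.76 ± 0.33 (SE; adjusted p = 8.2e-08). Probes of immunoglobulin genes can also bind related family members, so the transcript behind this signal is uncertain.

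Ms4a1 encodes CD20, a membrane protein of B cells that plasma cells lose. The brighter probe set (1423226_at) read 96.1, 104.9, 114.1 and 92.6 in the saline pools and 279.9, 294.7, 259.2 and 265.5 in the leptin pools. Every pool was above background, the groups were far apart, and pools of a treatment were close to each other. The means were 102 ± 9.63 and 275 ± 15.8 (SD), with a log2 difference of 1.36 ± 0.16 (SE; adjusted p = 0.000301, with the filter). The call was kept in all 18 alternatives in which the probe set was tested, with log2 differences from 1.11 to 1.43.

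The dimmer Ms4a1 probe set (1450912_at) read 11.3, 3.3, 0.2 and 10.5 in the saline pools, all under background. In the leptin pools it read 74.4, 116.2, 72.4 and 72.2, all above background, with leptin 6 apart from the other three. It was at least 1.78-fold higher after leptin (adjusted p = 0.00364, no filter), the same direction as its brighter partner.

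Cd22 encodes an inhibitory lectin receptor of B cells that binds sialic acid. The brighter probe set (1419768_at) read 45.8, 106.2, 125.3 and 104.6 in the saline pools and 243.7, 196.6, 197.0 and 140.9 in the leptin pools. The groups did not overlap, although the highest saline pool (saline 3) and the lowest leptin pool (leptin 8) were near each other. The log2 difference was 1.02 ± 0.29 (SE), with an adjusted p of 0.0496 in the fit with the filter and 0.0988 without it. The call was kept in 3 of 18 alternatives: with a pseudocount of 32 (adjusted p = 0.0424), with robust variances (0.0474) and without saline 3 (0.0456). It was lost when any 1 of the other 7 pools was left out, at adjusted p from 0.0529 (without leptin 8) to 0.122 (without leptin 5). Without saline 1, the lowest saline pool, the log2 difference was 0.73, and with the actin ratio as a covariate it was 0.60 (adjusted p = 0.445). The dimmer Cd22 probe set (1419769_at) lay under background in all 8 pools, at 3.6 to 7.3 after saline and 8.9 to 36.0 after leptin, so no fold is given.

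Cd37 encodes a tetraspanin of B cells that other leukocytes also carry. The brighter probe set (1425736_at) read 45.7, 45.8, 20.9 and 55.3 in the saline pools and 101.4, 125.8, 123.9 and 46.8 in the leptin pools. The groups overlapped, because leptin 8 lay below saline 4, and leptin 5, 6 and 7 lay above every saline pool. The lower bound of the fold was 1.92, and the difference was not called (adjusted p = 0.202, no filter). In the dimmer probe set (1419206_at) the order of the leptin pools was another: leptin 8 was the highest, at 64.5, and the other 3 lay under background at 8.4 to 23.1. All 4 saline pools of that probe set lay under background, at 3.7 to 6.7, and it was not called (adjusted p = 0.208).

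Blnk encodes the adaptor that joins the receptor's kinases to phospholipase C, and macrophages also use it. Its probe set (1451780_at) read 477.9, 355.5, 283.5 and 650.0 in the saline pools and 590.8, 650.9, 444.8 and 627.4 in the leptin pools. The groups overlapped, with saline 4 at the level of leptin 6. The means were 442 ± 160 and 578 ± 92.5 (SD), and the log2 difference of 0.44 ± 0.22 (SE) was not called (adjusted p = 0.261). It stayed uncalled in all 19 alternatives, with adjusted p from 0.0888 to 0.649.

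Btk encodes the Tec-family kinase whose loss in humans causes X-linked agammaglobulinaemia, and myeloid and mast cells express it too. Its probe set (1422755_at) read 26.2, 22.8, 15.0 and 50.8 in the saline pools and 30.5, 30.1, 127.9 and 69.9 in the leptin pools. The groups overlapped, and 3 saline and 2 leptin pools were under background, so no fold is given. The difference was not called (adjusted p = 0.429, no filter).

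Pax5 encodes the factor that commits cells to the B lineage. The brighter probe set (1454401_at) read 11.0, 99.8, 100.6 and 47.8 in the saline pools and 88.3, 7.1, 122.4 and 95.1 in the leptin pools. Both treatments held 1 pool under background, and the log2 difference of 0.16 ± 0.71 (SE) was not called (adjusted p = 0.937). Its sign changed with the scaling, to -0.048 after quantile normalization, -0.10 after cyclic loess and -0.086 after median centring. The dimmer probe set (1421765_at) read 9.1, 4.3, 11.3 and 51.0 in the saline pools and 41.6, 77.5, 85.9 and 53.4 in the leptin pools. The bound of its fold was 1.31, with leptin 5 below saline 4 (adjusted p = 0.114, no filter). It was called only without saline 4, the 1 saline pool above background (log2 difference 2.13, adjusted p = 0.0371).

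Ltb encodes lymphotoxin beta, a membrane ligand made by B cells and other lymphocytes that signals to stromal cells in lymphoid tissue. Its probe set (1419135_at) read 30.9, 6.6, 10.9 and 4.9 in the saline pools and 201.3, 142.4, 203.6 and 177.5 in the leptin pools. All saline pools lay under background and all leptin pools above it. The means were 13.3 ± 12.0 and 181 ± 28.4 (SD), at least 3.90-fold higher after leptin (adjusted p = 0.000987, no filter). The call was kept in all 17 alternatives, with adjusted p from 0.000622 to 0.0315.

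**Figure D2:**
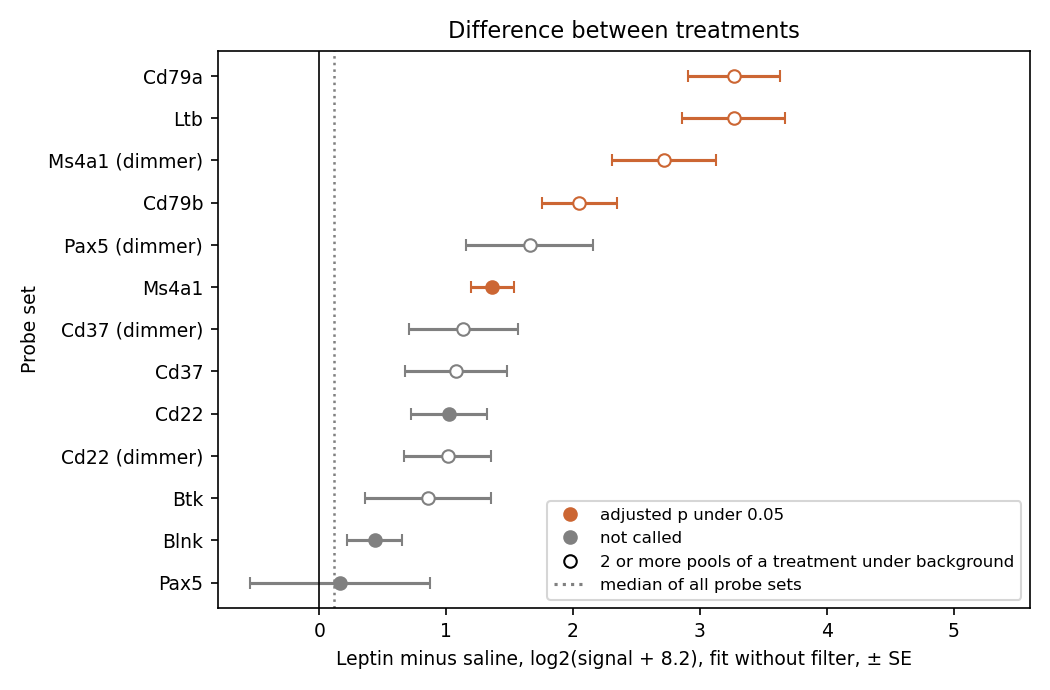
Log2 difference, leptin minus saline, with its standard error, of the 13 probe sets in the fit without a filter, sorted by size. Filled points have at most 1 pool of a treatment under background, and orange ones have an adjusted p under 0.05. The 5 orange probe sets belong to Cd79a, Ltb, Ms4a1 and Cd79b, and all 13 estimates lie above 0, against a median of 0.12 over all probe sets.

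The other genes of these pathways were read from lists, each gene from its brightest probe set. In B cell receptor signalling, the array held 21 of 24 listed genes with 1 symbol, of which 19 were tested: 4 rose, 0 fell and 15 were not called. Over the 19 tested genes the median log2 difference was 0.50, against 0.04 over all tested probe sets. The 4 were Ptprc, the phosphatase CD45 of all leukocytes (log2 difference 2.28 ± 0.17 SE), Syk, the kinase that binds the phosphorylated chains (1.30 ± 0.26), Prkcb, a protein kinase C isoform below phospholipase C (1.19 ± 0.16), and Fcgr2b, the inhibitory IgG receptor (1.16 ± 0.18). Their adjusted p-values were 4.4e-06, 0.0108, 0.000873 and 0.00258. With the actin ratio as a covariate Syk and Fcgr2b were not called (log2 difference 1.22 and 0.80, adjusted p = 0.122 and 0.0916). All leptin pools lay above all saline pools in 7 of the 21 genes, these 4 among them, against 6.77% of all probe sets. The 4 were named because they were called, so this separation is no added support for them. Myeloid cells express all 4 as well. Ptprc also stands in the pan-leukocyte list used further on.

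Syk read 61.8 to 141.4 in the saline pools and 207.5 to 290.3 in the leptin pools. Prkcb read 103.4 to 120.6 and 232.7 to 284.2. Fcgr2b read 403.4 to 619.8 and 785.3 to 1324. Plcg2, the phospholipase that Blnk recruits, had a log2 difference of 0.55 ± 0.16 (SE) that was not called (adjusted p = 0.0608). Nor were Bank1, a B cell scaffold protein (0.84 ± 0.26, adjusted p = 0.0741), or Inpp5d, the inhibitory lipid phosphatase SHIP-1 (0.63 ± 0.21, adjusted p = 0.0947). Plcg2 was called without leptin 8 (adjusted p = 0.0428) and Bank1 without leptin 7 (0.0288).

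Among B lineage transcription factors, 14 of 14 listed genes were on the array and 11 were tested: 2 rose, 0 fell and 9 were not called, with a median log2 difference of 0.42. The 2 were Pou2af1, the co-activator of Oct factors in B cells (0.87 ± 0.15 SE, adjusted p = 0.00531), and Spib, an ETS-family factor (0.77 ± 0.17, adjusted p = 0.0169). Pou2af1 read 318 to 472 in the saline pools and 626 to 853 in the leptin pools. The Spib call was lost without leptin 5 (adjusted p = 0.0528), without leptin 6 (0.0532), with the actin ratio (0.182), after quantile normalization (0.0599) and after median centring (0.0648). Irf8 (0.57 ± 0.27 SE, adjusted p = 0.219), Bcl11a (0.42 ± 0.22, adjusted p = 0.266) and Irf4 (0.54 ± 0.29, adjusted p = 0.277) were not called. For each of them the treatments overlapped. Ikzf1, which encodes Ikaros, was too dim for the filter. Without it, Ikzf1 rose at least 2.33-fold (adjusted p = 0.00195) from saline pools at 4.4 to 6.6 to leptin pools at 47.1 to 149.2. With the actin ratio that call was lost too (log2 difference 3.01 against 3.10, adjusted p = 0.0634).

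Among other B cell surface genes, 14 of 15 were on the array and 6 were tested: 2 rose, 0 fell and 4 were not called, with a median log2 difference of 0.54. Cd52, a small glycoprotein of lymphocytes and myeloid cells, rose by 2.19 ± 0.20 (SE; adjusted p = 3.1e-05). Ly86, the partner of the receptor Cd180, rose by 2.13 ± 0.27 (adjusted p = 0.000465). Fcmr, the IgM receptor, had a log2 difference of 0.78 ± 0.25 that was not called (adjusted p = 0.0790). Nor were Cd24a (0.23 ± 0.11, adjusted p = 0.238) and Cd180 itself (0.31 ± 0.22, adjusted p = 0.435) called. For both of these the treatments overlapped. Without the filter H2-Ob, a B cell gene of antigen loading, rose at least 1.70-fold (adjusted p = 0.00384) from saline pools at 2.8 to 17.4 to leptin pools at 72.0 to 84.7. That call was lost with the actin ratio (log2 difference 2.76 against 2.59, adjusted p = 0.0637).

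In the list for lymphotoxin signalling and lymphoid tissue, 11 of 15 genes were on the array and 6 were tested: 1 rose, 1 fell and 4 were not called, with a median log2 difference of 0.22. Cxcl13, the chemokine that draws B cells into follicles, read 106 to 263 in the saline pools and 414 to 546 in the leptin pools. Its log2 difference was 1.39 ± 0.23 (SE, adjusted p = 0.00349). The call was lost with the actin ratio (log2 difference 0.99, adjusted p = 0.110). Ltbr, the receptor for the lymphotoxin that Ltb forms part of, moved the other way, from 1124 ± 142 to 785 ± 75.4 (SD), a log2 difference of -0.51 ± 0.13 (SE; adjusted p = 0.0293). The Ltbr call was lost in 8 of 19 alternatives, among them the fits without saline 1 (0.0603), saline 3 (0.0757), leptin 5 (0.0583) or leptin 6 (0.0905). Nfkb2, a transcription factor gene of that receptor's pathway, had a log2 difference of 0.73 ± 0.23 and was not called (adjusted p = 0.0766). Nor were Tnfsf13b (0.39 ± 0.23, adjusted p = 0.336) and Relb (-0.18 ± 0.25, adjusted p = 0.701) called.

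**Figure D3:**
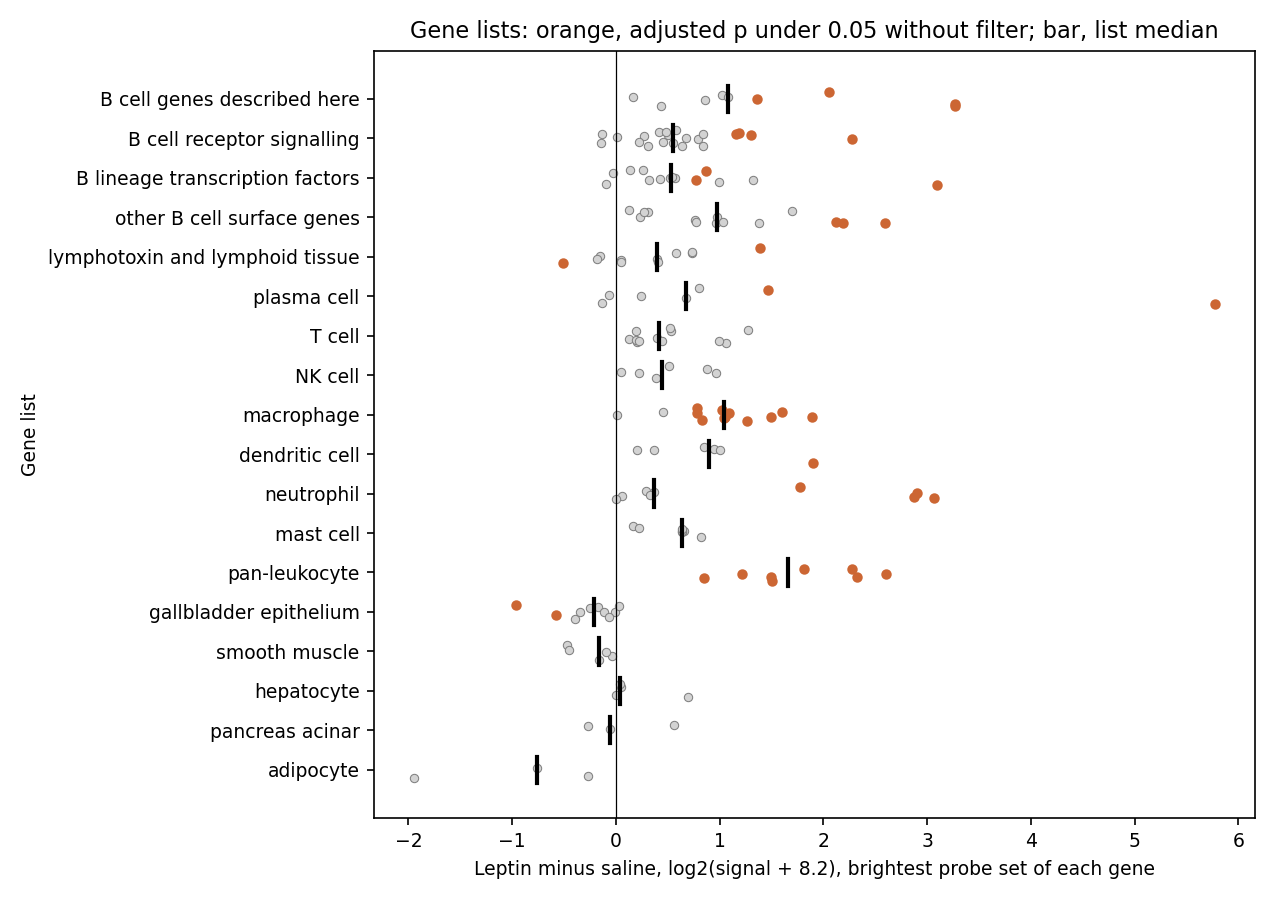
Log2 difference, leptin minus saline, of each gene of the lists (1 point a gene, brightest probe set), with the list's median as a bar and genes with an adjusted p under 0.05 in the fit without a filter in orange. The 8 pan-leukocyte genes are all orange and above 0. The T cell, NK cell, mast cell, smooth muscle, hepatocyte, pancreas and adipocyte genes are all grey. The medians of the epithelium, smooth muscle, pancreas and adipocyte lists lie below 0.

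Markers of other cells moved with the treatments, and their part in the results above was not tested. Of the pan-leukocyte list, 7 of 7 tested genes rose, among them Coro1a (log2 difference 2.61), Ptprc (2.28) and Laptm5 (1.82). The summed signal of its 8 genes was 1394 to 1897 in the saline pools and 4798 to 5347 in the leptin pools. Such a sum adds the brightness of unlike probe sets, so the brightest ones weigh most in it. Of the macrophage list, 11 of 13 rose, led by Tyrobp (1.89), Ms4a7 (1.60) and C1qa (1.50), and the sum went from 6265 to 7624 up to 12272 to 15253. Of the neutrophil list, 4 of 5 tested genes rose, led by S100a8 (3.07), Ltf (2.90) and S100a9 (2.87), with sums of 737 to 1272 and 3881 to 6587. Camp and Cxcr2 of that list were under background in all 8 pools. Ngp (0.0008) was tested and not called, and Mpo (0.36) and Elane (0.06) were not called without the filter. Over the 9 neutrophil genes on the array the median log2 difference was 0.36.

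Plasma cell genes rose in 2 of 5 tested: Jchain, the joining chain of polymeric antibody, by 5.77 (60.2 ± 16.5 to 3952 ± 1687, SD), and Mzb1, a chaperone of antibody secretion, by 1.47. The leptin pools raised the mean signal of Jchain, on which the filter rests. Its saline pools read 45.7 to 82.3, with 1 under background. Without the filter the same 2 genes were called, of 7 on the array. The summed signal of the plasma cell list was 9462 to 9928 in the saline pools and 12607 to 16088 in the leptin pools. Xbp1 and Sdc1 made up most of the saline sum, at 5633.4 to 5835.5 and 3420.1 to 3773.7. In the leptin pools they read 6335.5 to 7268.5 and 2993.6 to 3613.6, and neither was called. Itgax rose (1.90) of 2 dendritic cell genes tested, and 1 of 6, again Itgax, was called without the filter. The leptin pools raised its mean signal too, as its saline pools read 49.7 to 108. The dendritic cell list summed to 272 to 417 in the saline pools and 663 to 895 in the leptin pools. In the mast cell list 3 of 5 rose with the filter, Kit (0.82), Cpa3 (0.66) and Cma1 (0.63), and 0 of 7 by limma without it, where 4 had an unadjusted p under 0.05. Each of these calls was also lost without saline 1, saline 4, leptin 5 or leptin 8, among other fits. The sums of the list were 642 to 797 and 931 to 1338.

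T cell genes gave no call. By limma, 0 of 4 tested genes of that list changed, with 1 at an unadjusted p under 0.05, and without the filter 0 of 12 changed, with 3 under that level. Their summed signals were 1545 to 1652 in the saline pools and 1761 to 2573 in the leptin pools. Thy1, Zap70 and Cd8a made up most of these sums. Cd3e, a chain of the T cell receptor complex, read 28.1 to 32.2 and 22.5 to 54.2. Like Cd3d, Cd8b1 and Lat, it had 4 saline and 3 leptin pools under background. Signals that dim carry no level, so the lack of a call for these genes does not show that they were unchanged. The NK cell list gave 0 of 2 tested by limma, with 1 under an unadjusted p of 0.05, and sums of 306 to 459 and 440 to 584. Whether B cell genes differed from T cell genes in their change was not tested.

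The 10 genes marking the tissue's epithelium summed to 40680 to 50477 in the saline pools and 34367 to 38434 in the leptin pools, and each was above background in every pool. Of these, 3 of 10 fell, the keratins Krt7 (-0.96), Krt8 (-0.58) and Krt18 (-0.35). Those calls were lost with the actin ratio (log2 differences -0.50, -0.43 and -0.30). The Krt18 call was also lost without any 1 of saline 1, 2 or 4 or leptin 5 to 8. Smooth muscle genes gave 0 of 5 calls by limma, with 2 at an unadjusted p under 0.05. The liver gene Alb was bright in every pool (14896 to 21696 in saline and 18355 to 19377 in leptin), and 1 of 4 hepatocyte genes rose, Apoa1 (0.70), a call lost in 9 of 19 alternatives, among them those without saline 1 or 4 or leptin 5, 6 or 8. Adipocyte genes gave 0 of 3 calls by limma, with 2 at an unadjusted p under 0.05, and summed to 2854 to 10438 in saline and 2915 to 5040 in leptin. Pancreatic genes gave 0 of 2, with 0 at that level.

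General measures of the arrays also differed. The median signal was 81.8 ± 4.18 in the saline arrays and 98.9 ± 5.74 (SD) in the leptin arrays. The share of probe sets above background was 64.9% ± 1.49 and 69.4% ± 1.10. In both, every leptin array exceeded every saline array (two-sided exact permutation p = 0.0286 each, the smallest that 70 assignments allow, 0.0429 adjusted over 3 measures). The actin 3′ to 5′ ratio, a sign of RNA integrity, was 1.60 ± 0.0882 and 1.89 ± 0.207 (exact permutation p = 0.0571). With that ratio as a covariate and no filter, 4 of the 13 probe sets were still called, those of Ms4a1 (2), Cd79a and Ltb. The share of all probe sets called in that fit was not worked out. With the covariate and the filter, 1 of the B cell probe sets was called, and 242 of all 22519 tested probe sets were called higher. Since the ratio was on average higher in the leptin arrays, a fit that holds both estimates the treatment difference less precisely. What part RNA integrity had in any difference was not tested.

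Set against the pan-leukocyte genes of the same pool, 9 of the 13 probe sets had a smaller difference between treatments than those genes, and 4 had a larger one. All 4 of the latter (Cd79a, Ltb, Cd79b and the dimmer Ms4a1) had 3 or 4 saline pools under background, where the pseudocount shapes the value. The mean log2 level of the 8 pan-leukocyte genes was 7.40 ± 0.13 in the saline pools and 9.16 ± 0.07 (SD) in the leptin pools, a difference of 1.76.

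Ms4a1 (brighter probe set) lay at -0.83 to -0.50 relative to that level in the saline pools and at -1.11 to -0.84 in the leptin pools, a difference of -0.40. Blnk lay at 0.69 to 1.87 in the saline pools and at -0.35 to 0.28 in the leptin pools, a difference of -1.33. Cd22 lay at -1.45 to -0.44 in the saline pools and at -1.92 to -1.27 in the leptin pools, a difference of -0.74. These 3 probe sets had at most 1 pool under background. The dimmer Cd22 probe set differed by -0.75, Cd37 by -0.69 (brighter) and -0.63 (dimmer), Pax5 by -1.60 and -0.10, and Btk by -0.90, all with 3 or more saline pools under background except the brighter Pax5 probe set.

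The 4 above 0 were Cd79a (1.51), Ltb (1.50), the dimmer Ms4a1 (0.96) and Cd79b (0.29). Their lower bounds of the fold, as log2 of the signal, were 1.66, 1.96, 0.83 and 1.92, to be set beside the 1.76 of the pan-leukocyte genes. Whether any of the 4 B cell probe sets rose more than the pan-leukocyte genes was not tested, and none of these comparisons carries a test.

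**Figure D4:**
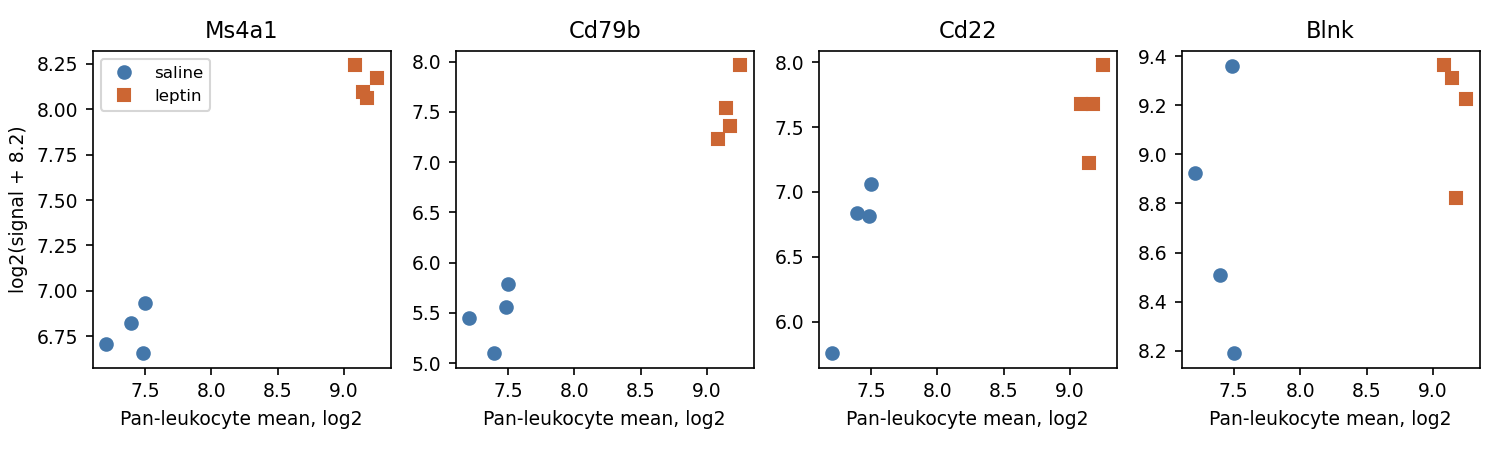
Level of Ms4a1, Cd79b, Cd22 and Blnk (vertical, log2(signal + 8.2), brightest probe set) against the mean log2 level of the 8 pan-leukocyte genes (horizontal) in the 4 saline and 4 leptin pools. Saline and leptin pools form separate clusters, at 7.21 to 7.50 and 9.08 to 9.25 on the horizontal axis, and only in the Blnk panel do the treatments overlap vertically.

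The genes whose pattern was most like that of Ms4a1 were sought among 11711 tested genes. Over the 8 pools, Pearson r of log2 values was 0.993 for Kit, a mast cell and progenitor receptor, 0.993 for H2-Aa, an MHC class II chain of antigen-presenting cells, 0.991 for Laptm5, a lysosomal protein of leukocytes, 0.991 for Prkcb and 0.990 for Tyrobp, an adaptor of myeloid and NK cells. The 8 pools form 2 groups, so these values mostly restate that the treatments differ. With each treatment's mean removed, r was 0.898 for Kit, 0.460 for H2-Aa, 0.729 for Laptm5, 0.584 for Prkcb and 0.484 for Tyrobp.

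The order of the leptin pools differed between the B cell genes: leptin 5 was the highest for Cd79b and Cd22, leptin 8 for Cd79a and leptin 7 for Ltb. These are descriptions of single pools and carry no p.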

How the data were processed

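Total RNA of 8 gallbladder pools was measured on 1-colour arrays. The authors deposited linear intensities, 1 MAS 5.0 signal per probe set, scaled to a 2% trimmed mean of 250; the submitters' processing notes name MAS5. For its version, detection calls and scan dates, nothing is given in the sources used here, and no batch check was made. Probe sets were named from the platform annotation, with symbols updated through RefSeq's gene table for GRCm38.p6, which also gave the promoters.

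Arrays were brought to the same trimmed mean, and log2(signal + 8.2), with 8.2 the 10th percentile, was fitted with limma 3.58.1 in R 4.3.3 (lmFit, eBayes with trend, two-sided, Benjamini-Hochberg, threshold 0.05). Control probe sets (64) did not enter the fit; 27 bacterial ones set the background. The filter kept probe sets at or above the median mean log2, 22519 in all. Dim B cell probe sets were read from the fit without it. Other settings for these, all without the filter, were added after seeing the data. Settings tried covered scaling, pseudocount, filter, variance model, array weights, the actin ratio, the threshold and leaving out each pool. Permutation tests used scipy 1.17.1. The fit with the filter was tested on simulated data, with changes added only to probe sets above the median level. The fit without the filter was not tested in this way.

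The genes and lists were chosen with earlier results of these data known. Named were all probe sets of the 9 genes, up to 6 called and 3 uncalled genes of each pathway list, up to 3 called genes of each marker list, Ighm and the 5 genes most like Ms4a1. Ikzf1, H2-Ob, Cd3e, Alb, Camp and Cxcr2 were added after their values were seen. So were Xbp1, Sdc1, Thy1, Zap70, Cd8a, Cd3d, Cd8b1, Lat, Cd48, Ngp, Mpo and Elane.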

Additional observations from a re-analysis of the deposited data

Results flagged for a closer look

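Of 26 groups of 4 pools (13 probe sets in each treatment), 3 held a pool whose gap to the nearest other pool was large for the group's range by Dixon's criterion. Chance alone gives about 1 in 20 such groups. In the dimmer Ms4a1 probe set (1450912_at), leptin 6 read 116, and the other leptin pools 72.2 to 74.4. In the dimmer Cd37 probe set (1419206_at), saline 4 read 3.70, and the other saline pools 6.2 to 6.7, all under background. In the brighter Pax5 probe set (1454401_at), leptin 6 read 7.10, and the other leptin pools 88.3 to 122.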

How the results depend on the processing

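The called probe sets numbered 1561 (798 higher, 763 lower), against 3992 (406 higher, 3586 lower) after median centring, which moved the median log2 difference of tested probe sets from 0.04 to -0.21. They numbered 595 with the actin ratio as a covariate, 507 at an adjusted p of 0.01, and 884 to 1431 with 1 pool left out. Of the B cell probe sets, 2 were called with the filter; 1 after quantile normalization, cyclic loess, median centring, with a pseudocount of 1, no trend, array weights, the actin ratio or an adjusted p of 0.01; 2 with robust variances; 3 with a pseudocount of 32; 0 with a 75th percentile filter; 5 with no filter; and 1 to 3 with 1 pool left out. The counts with a pseudocount of 32 or without a saline pool include Cd79b, which then passed the filter on mean signal through its leptin pools alone and is no added support. With no filter the count of 5 became 4 with the actin ratio, 6 without saline 4, and 5 in the other 15 alternatives. The brighter Pax5 probe set changed sign, at -0.048 (quantile), -0.10 (cyclic loess), -0.086 (median centring), -0.46 (actin ratio) and -0.38 to 0.87 with 1 pool left out; the cause was not tested. No other B cell probe set changed sign in any alternative run. Averaging both probe sets of a gene gave 2.04 for Ms4a1 (adjusted p = 0.00295), 1.02 for Cd22 (0.199), 1.11 for Cd37 (0.138) and 0.91 for Pax5 (0.379). No paired analysis was possible because the treatments share no replicate number. The 4 arrays in each treatment limit precision, and signals under background carry no level.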
